A study of Homo sapiens with 8 samples.

Results

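Genes of the tumour necrosis factor (TNF) superfamily and of its receptors were followed in human fibroblasts exposed to the secretions of senescent cells. The set holds 10 genes of the 27696 in the count table, 2 ligands (TNFSF15 and TNFSF4) and 8 receptors (TNFRSF1A, TNFRSF1B, TNFRSF10B, TNFRSF10D, TNFRSF11B, TNFRSF12A, TNFRSF21 and FAS), found by their symbols. All 10 had enough reads to be tested. They belong to a family of 47 genes that were listed for context, of which 39 had a row in the table and 22 were tested. The 10 genes and the lists used below were chosen with earlier results of these data known.

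The recipient cells were normal IMR90, a line of primary human lung fibroblasts, kept for 3 days in conditioned medium. Medium came from IMR90 ER:RAS fibroblasts, which carry a RAS oncogene fused to an estrogen receptor domain and enter oncogene-induced senescence once 4-OHT (4-hydroxytamoxifen) switches the fusion on. The 4 groups are named after the day of induction at which the donors' medium was taken, D0 for donors not yet induced and D4, D7 and D10 for day 4, day 7 and day 10. The donors of every group, D0 included, carried the ER:RAS construct, and no group had fresh medium or medium from cells without it. Each group has 2 libraries, 1 from each of 2 independent experiments, so 8 libraries were analysed. A library is named by its group and experiment, which is the replicate number in the labels. With 2 libraries a group, p-values of fits by group alone rest on the spread between these experiments. Where the experiment is also a term of the fit, they rest on the spread left after its levels are fitted.

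Ligands of this family are trimers, mostly anchored in the membrane and sometimes shed, and their receptors carry cysteine-rich repeats outside the cell. Some receptors, such as TNFRSF1A, TNFRSF10B, TNFRSF21 and FAS, hold a death domain that can recruit caspases. Others, such as TNFRSF1B and TNFRSF12A, bind TRAF adaptors and feed the NF-κB pathway. A few act as decoys that bind a ligand without passing on a death signal, among them TNFRSF10D and the secreted TNFRSF11B. In fibroblasts the family is known for responses to inflammatory cytokines and for setting sensitivity to death ligands, and many NF-κB target genes belong to the senescence-associated secretory phenotype (SASP).

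Total counts were between 11708193 and 13395912 a library. Values are given as CPM (counts scaled to a common library size with TMM factors), and these factors ran from 0.948 to 1.084. The fibroblast label was checked with 10 markers, all of which were counted in every library. Their summed level was 21183 CPM in D10 of experiment 2 and from 42979.5 to 57988 CPM in the other 7 libraries, and COL1A1 (type I collagen) had 1293 CPM there against 8682 to 14484 CPM elsewhere. It was the lowest of the 8 libraries for 7 of the 10 markers, COL1A1, COL1A2, COL3A1, VIM, PDGFRB, THY1 and DCN. The paper reports lower levels of several collagens with such medium, and how far these markers follow the medium was not tested. D10 of experiment 2 thus stands apart in its fibroblast markers, and the D10 changes of the 10 genes are also given without this library. Changes of other genes, medians and correlations are given with it only. Summed immune markers lay between 1.53 and 3.77 CPM (5 of 6 markers in the table) with at most 1 count of PTPRC, the pan-leukocyte marker, in any library. Epithelial markers summed to between 45.8 and 94.7 CPM, nearly all from KRT8 and KRT18, with at most 3 counts of CDH1 in a library. Endothelial markers summed to between 42.5 and 122 CPM, nearly all from TEK, with at most 5 counts of CDH5. In bulk RNA, fewer cells of a type and less RNA per cell cannot be told apart.

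The promoter windows below are shown because TNFSF15 and TNFRSF1B were both highest with D10 medium in both experiments, whereas TNFSF4 went opposite ways in the 2 experiments. They come from RefSeq (GRCh38.p14) and run 5′ to 3′ on the gene's strand, from 250 bases before to 50 bases after a transcription start. Capitals mark matches to an AP-1 motif (TGANTCA) or a GC box (GGGCGG, here on the opposite strand) on either strand.
TNFSF15, chr9:114792481-114792780, minus strand: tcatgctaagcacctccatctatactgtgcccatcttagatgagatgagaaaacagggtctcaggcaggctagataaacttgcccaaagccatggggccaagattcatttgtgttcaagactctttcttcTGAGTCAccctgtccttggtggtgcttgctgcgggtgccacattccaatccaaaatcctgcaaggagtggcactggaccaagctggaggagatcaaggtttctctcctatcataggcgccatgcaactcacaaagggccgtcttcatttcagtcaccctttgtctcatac
TNFRSF1B, chr1:12166741-12167040, plus strand: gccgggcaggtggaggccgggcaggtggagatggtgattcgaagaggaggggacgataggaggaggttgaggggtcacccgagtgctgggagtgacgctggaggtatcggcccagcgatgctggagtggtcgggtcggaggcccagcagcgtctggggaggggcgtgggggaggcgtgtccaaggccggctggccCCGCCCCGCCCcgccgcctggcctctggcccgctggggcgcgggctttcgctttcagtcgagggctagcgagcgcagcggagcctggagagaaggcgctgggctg
TNFSF4, chr1:173205483-173205782, minus strand: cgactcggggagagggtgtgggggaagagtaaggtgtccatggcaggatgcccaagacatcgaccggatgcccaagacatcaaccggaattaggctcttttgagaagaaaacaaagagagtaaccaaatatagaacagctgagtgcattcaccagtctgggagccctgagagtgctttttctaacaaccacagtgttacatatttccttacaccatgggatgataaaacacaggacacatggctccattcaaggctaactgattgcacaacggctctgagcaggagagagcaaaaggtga

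The RefSeq table held windows for 6 of the 10 genes, and TNFRSF10B, TNFRSF10D, TNFRSF11B and TNFRSF12A are named only. The TNFSF15 window belongs to a start 13596 bases downstream of the gene's first base in GENCODE 29 and 422 bases upstream of the nearest annotated transcript start, and counts per gene do not show which start was used. It holds 1 AP-1 match, whose first base lies 120 bases before the start, and 7.71% of the 35116 RefSeq windows of the same length hold at least 1. TNFRSF1B holds 2 GC boxes, beginning 55 and 50 bases before its start and overlapping by 1 base, and 45.0% of windows hold one. The window is 72.0% G and C, against 49.3% for TNFSF15, 48.3% for TNFSF4 and a median of 58.7% over all windows. In none of these 3 windows was a match to an NF-κB motif (in 11.3% of windows) or a TATA box (TATAAA, in 11.5%) found. A p53 half-site (6.63% of windows) matched once in TNFSF15. Of the 3 FAS windows, which are not printed, 1 held an NF-κB match and a p53 half-site and another an AP-1 match. Each of the 3 held at least 1 GC box. A match describes these letters and not binding by a factor.

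With D10 medium TNFSF15 had the largest rise among the 22 tested genes of the family. TNFSF15 encodes TL1A, a ligand of the death-domain receptor TNFRSF25. The gene (ENSG00000181634.7) lies on the minus strand of chromosome 9 from 114784635 to 114806126 (GRCh38, GENCODE 29). TNFSF15 stood at 1.34 and 1.60 CPM (D0), 1.01 and 2.01 (D4), 1.98 and 2.12 (D7) and 18.1 and 49.1 (D10), the library of experiment 1 given before that of experiment 2 throughout. Both D10 libraries lay far above the other 6, which overlapped each other. Behind these values lay 16 and 22 reads (D0) and 229 and 623 reads (D10). The mean rose from 1.47 ± 0.18 to 33.6 ± 21.9 CPM (SD, 2 libraries), 22.7-fold, or 4.50 on the log2 scale, with standard error 0.57 (adjusted p = 0.0379, the quasi-likelihood test of edgeR, adjusted over 13798 genes by Benjamini and Hochberg). Within experiments the ratio of D10 to D0 was 13.5 in experiment 1 (95% interval 8.15 to 24.1) and 30.7 in experiment 2 (20.1 to 49.3). These exact intervals cover counting error only.

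TNFSF15 was called among 40 genes at D10, 0.29% of the 13798 tested. Its call in this fit needed nearly every library. It was called without D10 of experiment 1, whereas without any of the other 7 libraries, taken singly, the adjusted p from edgeR lay between 0.0544 and 0.244, with a log2 fold change of 3.61 (adjusted p = 0.0777, edgeR) without D10 of experiment 2. With the experiment as a block in edgeR, which fits the 2 experiments' own levels, the log2 fold change was 4.42 (standard error 0.35, adjusted p = 5.0e-04). Leaving out any 1 of the 8 libraries under the block gave log2 fold changes from 3.84 to 4.88. Without a D0 or D10 library, with or without the block, that group holds 1 library.

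**Figure D1:**
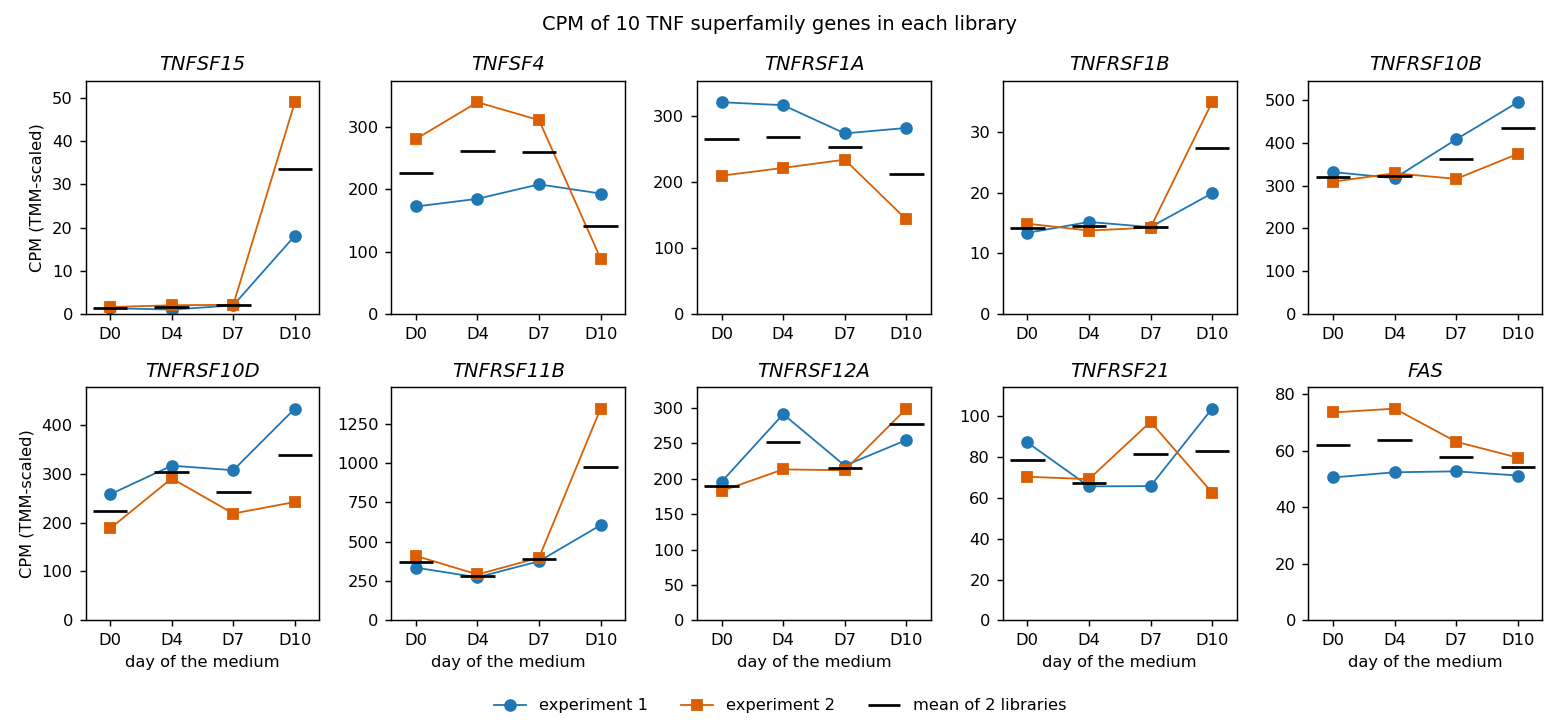
TMM-scaled CPM of the 10 genes at D0, D4, D7 and D10, 1 panel a gene with its own axis from 0 and the days evenly spaced. Circles and squares are the libraries of experiments 1 and 2, joined only to guide the eye, and bars the mean of 2 libraries. TNFSF15 stays at or under 2.12 CPM until D7 and has 18.1 and 49.1 CPM at D10, whereas TNFSF4 at D10 is at 193 CPM in experiment 1 and 88.8 CPM in experiment 2.

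TNFSF4 encodes OX40L, a costimulatory ligand of TNFRSF4. The gene (ENSG00000117586.10) is on the minus strand of chromosome 1 from 173183734 to 173207313. TNFSF4 stood at 172 and 280 CPM (D0), 185 and 339 (D4), 208 and 311 (D7) and 193 and 88.8 (D10). Experiment 2 was the higher of the pair at D0, D4 and D7 and the lower at D10, where its library was the lowest of all 8. The fitted log2 fold change at D10 was -0.68 (standard error 0.47, adjusted p = 0.962, edgeR), so TNFSF4 did not pass the test. The ratio of D10 to D0 was 1.12 in experiment 1 (95% counting interval 1.06 to 1.19) and 0.317 in experiment 2 (0.296 to 0.339). A model with a term for the difference of the D10 change between experiments, added after the values had been seen, gave -1.84 on the log2 scale (standard error 0.23, adjusted p = 7.5e-04, edgeR). This term was called for 3.09% of all genes. It sets 1 D10 library of each experiment against the other, with the spread taken from D0, D4 and D7 and assumed to hold at D10. Without D10 of experiment 2 the fitted log2 fold change of TNFSF4 was -0.23, or 0.17 with the block. Without D10 of experiment 1 it was -1.33, or -1.65 with the block. Each of these fits holds 1 D10 library. TNFSF4 was low in the library in which 7 fibroblast markers were also lowest, and the part of that in this result was not tested.

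Neither receptor of TNF itself passed the test at D10, and their fitted changes had opposite signs. TNFRSF1A, the widely expressed death-domain receptor, lies on the minus strand of chromosome 12 from 6328757 to 6342114 (ENSG00000067182.7). TNFRSF1A stood at 322 and 210 CPM (D0), 317 and 222 (D4), 274 and 234 (D7) and 283 and 143 (D10). Experiment 1 was higher on every day, and D0 and D10 overlapped. Its log2 fold change at D10 was -0.32 (standard error 0.38, adjusted p = 0.998, edgeR), and 0.088 without D10 of experiment 2. TNFRSF1B, the second receptor, lacks a death domain and signals through TRAF2. Its gene is on the plus strand of chromosome 1 from 12167003 to 12209228 (ENSG00000028137.18). TNFRSF1B stood at 13.4 and 14.9 CPM (D0), 15.2 and 13.8 (D4), 14.3 and 14.3 (D7) and 19.9 and 35.0 (D10). The 6 libraries before D10 spanned less than 2 CPM, and both D10 libraries lay above them. The log2 fold change was 0.96 (standard error 0.29), which did not pass the test (adjusted p = 0.307, or 0.0638 with the block, edgeR). The ratio was 1.49 in experiment 1 (1.22 to 1.83) and 2.35 in experiment 2 (1.98 to 2.78), and the fitted log2 fold change was 0.49 without D10 of experiment 2.

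TNFRSF11B encodes osteoprotegerin, a secreted decoy that binds TNFSF11 (RANKL) and TNFSF10 (TRAIL). The gene (ENSG00000164761.8) is on the minus strand of chromosome 8 from 118923557 to 118952200. TNFRSF11B stood at 335 and 410 CPM (D0), 274 and 292 (D4), 376 and 398 (D7) and 606 and 1346 (D10). D10 was above the other days in both experiments, and D10 of experiment 2 was the highest of all 8 libraries. The log2 fold change at D10 was 1.39 (standard error 0.37), with an adjusted p of 0.217 from edgeR. With the block it was 1.33 (standard error 0.27, adjusted p = 0.0254), and with DESeq2 the adjusted p was 0.0137, so the call depends on the model. The ratio was 1.81 in experiment 1 (95% counting interval 1.74 to 1.88) and 3.28 in experiment 2 (3.19 to 3.38). The D10 change of the single library in experiment 2 was larger by 1.00 on the log2 scale than that in experiment 1 (standard error 0.23, adjusted p = 0.033, edgeR, in the same added model). Without D10 of experiment 2 the log2 fold change was 0.70, or 0.78 with the block, in fits that hold 1 D10 library. Under the block the call was lost without D0 of experiment 1 (adjusted p = 0.123, edgeR), D0 of experiment 2 (0.309) or D7 of experiment 2 (0.0603).

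Of the membrane-bound receptors of TRAIL none passed the test at D10, with or without the block. TNFRSF10B encodes DR5, a death receptor, on the minus strand of chromosome 8 from 23020133 to 23069179 (ENSG00000120889.12). TNFRSF10B stood at 332 and 310 CPM (D0), 318 and 329 (D4), 409 and 316 (D7) and 495 and 374 (D10). Both D10 libraries were above both D0 libraries, but the D7 library of experiment 1 was above D10 of experiment 2. Its log2 fold change was 0.44 (standard error 0.25, adjusted p = 0.859, edgeR), and 0.63 without D10 of experiment 2. TNFRSF10D, the decoy DcR2 with a truncated death domain, lies on the same strand from 23135588 to 23164030 (ENSG00000173530.5). TNFRSF10D stood at 258 and 188 CPM (D0), 316 and 290 (D4), 307 and 218 (D7) and 433 and 242 (D10). Within each experiment D10 exceeded D0, though D10 of experiment 2 was below D0 of experiment 1. Its log2 fold change was 0.60 (standard error 0.34, adjusted p = 0.851, edgeR). Without D10 of experiment 2 it was 0.96, or 0.80 with the block, in fits that hold 1 D10 library.

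TNFRSF12A encodes Fn14, the small receptor of TNFSF12 (TWEAK). It lies on the plus strand of chromosome 16 from 3018445 to 3022383 (ENSG00000006327.13). TNFRSF12A stood at 196 and 183 CPM (D0), 291 and 213 (D4), 219 and 212 (D7) and 255 and 299 (D10). The D0 libraries were the lowest of the 8, and D4 of experiment 1 lay above D10 of the same experiment. Its log2 fold change at D10 was 0.55 (standard error 0.24, adjusted p = 0.631, edgeR), and 0.43 without D10 of experiment 2.

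TNFRSF21 and FAS, both with a death domain, did not separate the groups. TNFRSF21 (DR6) is on the minus strand of chromosome 6 from 47231532 to 47309905 (ENSG00000146072.6). TNFRSF21 stood at 87.1 and 70.3 CPM (D0), 65.6 and 69.1 (D4), 65.7 and 97.2 (D7) and 104 and 62.5 (D10). Its highest and lowest libraries were the pair from D10, and the log2 fold change was 0.08 (standard error 0.30, adjusted p = 0.998, edgeR), or 0.40 without D10 of experiment 2. FAS, the receptor of FASLG, is on the plus strand of chromosome 10 from 88990582 to 89015785 (ENSG00000026103.21). FAS stood at 50.6 and 73.6 CPM (D0), 52.4 and 74.9 (D4), 52.7 and 63.2 (D7) and 51.2 and 57.6 (D10). In every group experiment 2 was the higher, and in experiment 1 the 4 values lay within 3 CPM of each other. Its log2 fold change was -0.19 (standard error 0.27, adjusted p = 0.998, edgeR), and -0.28 without D10 of experiment 2. ACTA2 (α-smooth muscle actin) on the opposite strand covers 8.93% of the exon bases of FAS and its mean was 1254 CPM with D0 and 185 CPM with D10 medium (log2 fold change -2.76, adjusted p = 0.0399, edgeR). Whether counting used strand is not given in the sources used here, so the part of ACTA2 reads in the FAS counts was not tested.

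**Figure D2:**
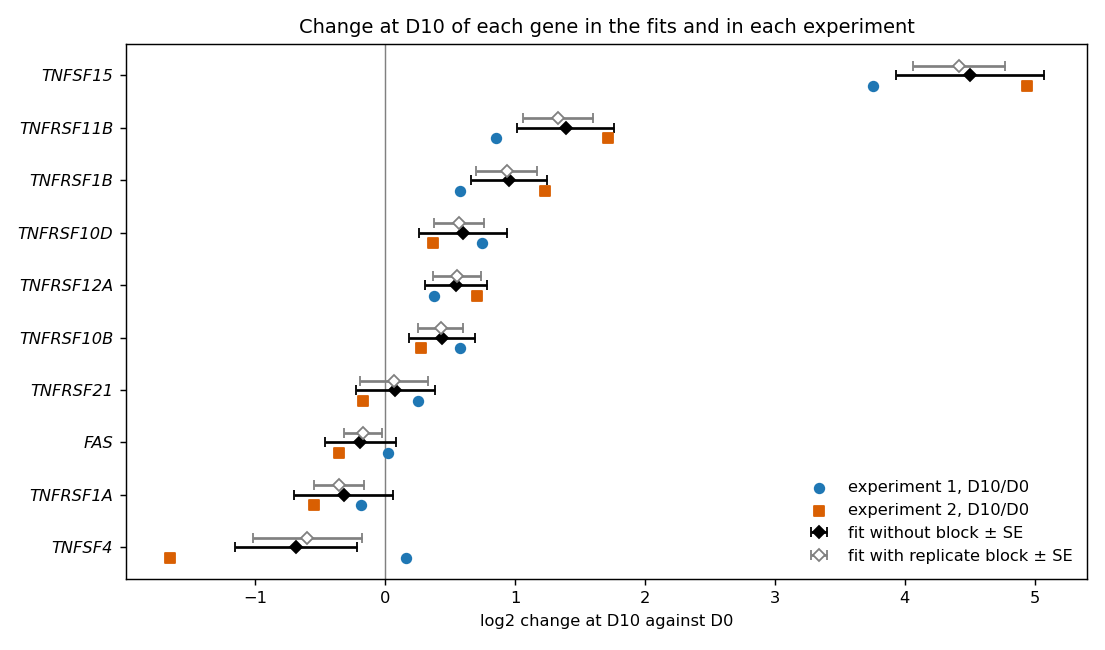
Log2 change at D10 against D0 of the 10 genes, ordered by the fit. Filled and open diamonds are edgeR's fits without and with the replicate block, with bars of 1 standard error, and circles and squares the ratio within experiments 1 and 2. TNFSF15 is at 4.50, TNFRSF11B at 1.39 and TNFRSF1B at 0.96, and the 2 experiments of TNFSF4 fall on opposite sides of 0.

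At D4 and D7 0 of the 10 genes were called, and 0% of all genes were called on either day (edgeR, 0 of 13798), with 409 genes at D4 and 599 at D7 under an unadjusted p of 0.05 and none of the 10 among them. DESeq2 also called 0 of the 10 on these days, and 44 and 112 of all genes. With the block 0 of the 10 were called, against 0.275% of all genes at D4 and 1.25% at D7. The fitted log2 fold changes ran from -0.40 (TNFRSF11B) to 0.44 (TNFRSF10D) at D4 and from -0.10 (FAS) to 0.48 (TNFSF15) at D7. At D10 1 of the 10 was called without the block and 2 with it, TNFSF15 and TNFRSF11B, where the block called 4.99% of all genes. The median log2 fold change of the 10 genes was 0.49 at D10, against 0.00 over all genes tested, and 0.03 at D4 and 0.12 at D7. At D10 6 of the 10 were higher in both experiments (31.1% of all genes were), 1 was lower in both (32.3%) and 3 differed in direction. The 6 were TNFSF15, TNFRSF1B, TNFRSF10B, TNFRSF10D, TNFRSF11B and TNFRSF12A, and the 1 was TNFRSF1A. Since the 10 genes were chosen with earlier results of these data known, these shares do not test them against all genes.

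By a rule chosen after seeing the data, both D10 libraries lay above both D0 libraries for 5 of the 10 genes and for 15% of all genes, and below them for 0 of the 10 and 16% of all. The 5 were TNFSF15, TNFRSF1B, TNFRSF10B, TNFRSF11B and TNFRSF12A. For TNFSF15, TNFRSF1B and TNFRSF11B, 3 of the 10, both D10 libraries were also above the 6 libraries of the other days, which held for 5.11% of all genes. The limit set by the choice of the 10 genes holds here too.

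The experiments were also compared over all groups together. With group in the model, experiment 2 against experiment 1 was called for 4 of the 10 genes, while 34.8% of all genes were called. FAS was 1.29-fold higher in experiment 2 (log2 0.37, adjusted p = 0.0242, edgeR) and higher there in 4 of 4 groups. TNFRSF1A had 0.668 times the level of experiment 1 (log2 -0.58, adjusted p = 0.0132, edgeR) and TNFRSF10D 0.719 times (log2 -0.48, adjusted p = 0.0256), both lower in 4 of 4 groups. TNFSF15 was 1.84-fold higher (log2 0.88, adjusted p = 0.0305, edgeR) and higher in 4 of 4 groups. The TNFSF15 difference was largest at D10. With 1 library of a group left out, the term of that group fits the other library exactly. Leaving out either library of a group is thus nearly the same check. When either D10 library was left out TNFSF15 was no longer called (log2 0.41 and 0.42, adjusted p = 0.253 and 0.274, edgeR) and TNFSF4 was (0.72 both times, adjusted p = 2.5e-04 and 3.9e-04). Leaving out either D4 library also ended the TNFSF15 call (adjusted p = 0.0793 and 0.0825, edgeR). Without either D0 library it was the one gene of the 10 called.

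Levels of different genes were compared as CPM per kilobase of annotated exon. At D0 TNFRSF11B was first with 132 ± 18.7 CPM per kilobase (SD, 2 libraries), followed by TNFRSF12A with 102 ± 5.02, and their libraries did not overlap. TNFRSF1A (66.4 ± 19.7), TNFRSF10D (63.0 ± 13.9), TNFRSF10B (62.2 ± 3.07) and TNFSF4 (57.4 ± 19.4) followed, and these neighbours did not differ beyond their spread. TNFRSF21 had 21.9 ± 3.30, FAS 14.6 ± 3.82, TNFRSF1B 3.76 ± 0.28 and TNFSF15 0.19 ± 0.02, each apart from the next with this length. At D10 TNFSF15 reached 4.26 ± 2.77 CPM per kilobase and was still the lowest of the 10, overlapping with TNFRSF1B at 7.29 ± 2.82. TNFRSF11B, at 345 ± 185, was first at D10 as at D0, and second to TNFRSF12A at D4. With the longest transcript as length, TNFRSF1A came second at D0, ahead of TNFRSF12A, and TNFRSF10B, TNFSF4 and TNFRSF10D followed in that order. FAS (24.2) then came ahead of TNFRSF21 (21.9), so the order of these genes depends on the length used.

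**Figure D3:**
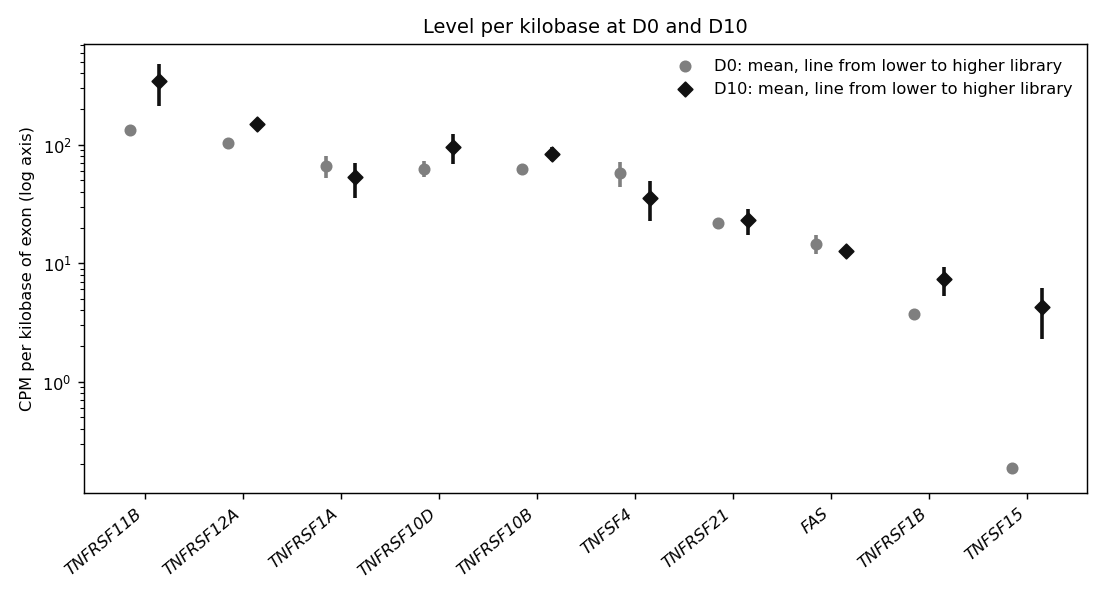
Level of the 10 genes as CPM per kilobase of exon on a log axis, ordered by D0. Grey circles are D0 and black diamonds D10, each the mean of 2 libraries with a line from the lower to the higher library. The genes span from 0.19 (TNFSF15) to 132 (TNFRSF11B) CPM per kilobase at D0, and TNFSF15 remains the lowest at D10.

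Several ligands and receptors that pair with these genes were hardly counted in the recipient cells. FASLG had at most 1 count in a library and TNFRSF4, the receptor of OX40L, also at most 1. TNFSF10 had from 0 to 6 counts. These counts allow no comparison at this depth. TNFSF12 had 12.9 to 19.0 CPM at D0 and 10.5 to 17.3 CPM at D10 (log2 fold change -0.19, adjusted p = 0.998, edgeR), and 29.4% of its exon bases are shared with the readthrough gene TNFSF12-TNFSF13. TNFRSF25, the receptor of TL1A, had 29 and 52 counts (D0) and 29 and 44 counts (D10) (log2 fold change -0.11, adjusted p = 0.998, edgeR). TNF, LTA, TNFSF11 and TNFRSF6B had no row under these symbols in the count table and were not analysed here.

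Among the 12 other tested genes of the family none was called at D10 by edgeR with or without the block, and 3 had an unadjusted p under 0.05, as did 7.94% of all genes, of which TNFSF18 had the largest change. TNFSF18 encodes GITRL, a costimulatory ligand. TNFSF18 stood at 5.69 and 4.14 CPM (D0), 4.11 and 7.59 (D4), 5.72 and 18.1 (D7) and 28.7 and 7.88 (D10) (log2 fold change 1.90, standard error 0.72, adjusted p = 0.499, edgeR). Experiment 1 peaked at D10 and experiment 2 at D7. The other 2 were TNFRSF10A, the DR4 death receptor of TRAIL, with 0.94 (adjusted p = 0.319), and RELT with 0.89 (adjusted p = 0.432). TNFRSF10A had 5.44 and 4.51 CPM at D0 and 8.70 and 10.4 CPM at D10. LTBR, the lymphotoxin β receptor, had 245 and 177 CPM at D0 and 253 and 172 CPM at D10, with a log2 fold change of 0.01. These 4 genes were singled out after their values had been seen. Over the whole family, 1 of 6 tested ligands and 0 of 16 tested receptors were called at D10, beside 0.29% of all genes. With the block 1 and 1 were called, beside 4.99% of all genes. These counts are too small to set ligands and receptors apart. Median log2 fold changes were 0.43 for ligands and 0.49 for receptors, against 0.00 over all genes tested.

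**Figure D4:**
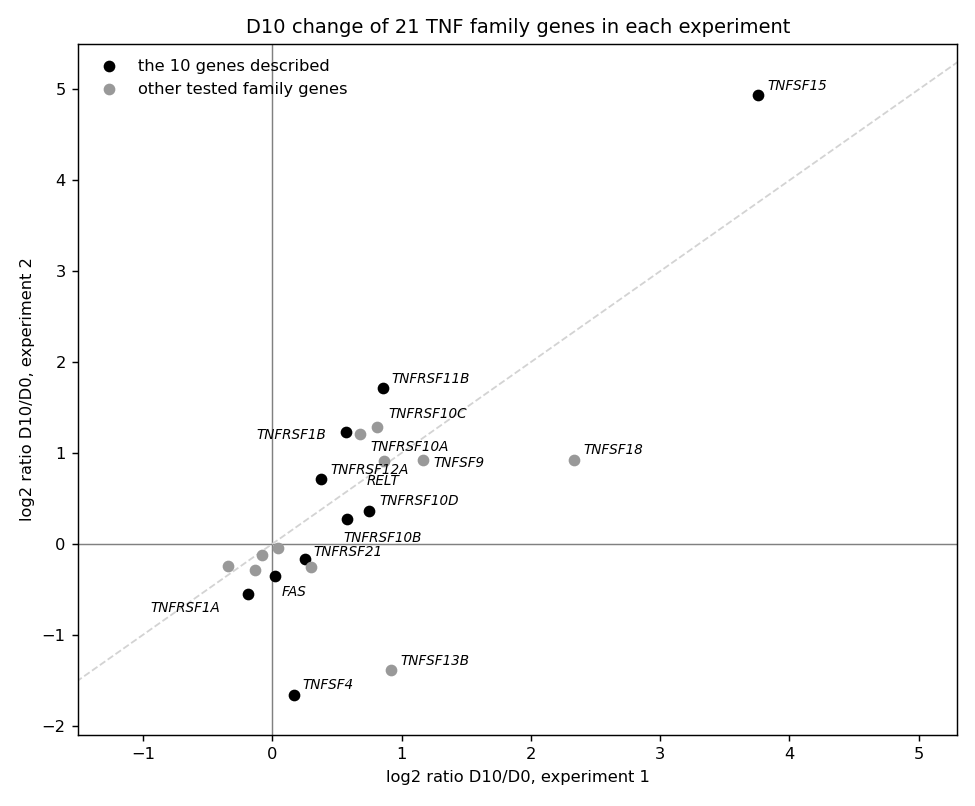
Log2 ratio of D10 to D0 in experiment 1 (horizontal axis) and experiment 2 (vertical axis) for 21 tested family genes, black for the 10 genes described and grey for the others. The dashed line marks equal ratios. TNFSF15 is at 3.76 and 4.94, TNFSF18 at 2.33 and 0.93, and TNFSF4 lies below 0 in experiment 2 only. TNFRSF14 is left out since it had 0 counts in 1 D0 library.

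Downstream of the receptors, 33 of 35 listed genes for death and survival signalling were tested. None was called without the block (5 of 33 had an unadjusted p under 0.05 at D10, beside 7.94% of all genes, and DESeq2 called TNFAIP3 and IKBKB). With the block 3 were called higher and 1 lower at D10, 12.1% of the 33 beside 4.99% of all genes. TNFAIP3, which encodes the NF-κB inhibitor A20, had 4.27 and 10.3 CPM at D0 and 22.8 and 164 CPM at D10 (log2 fold change 3.67, adjusted p = 0.151 in edgeR, 0.0083 with the block). TNIP1, a partner of A20, had 130 and 91.2 CPM at D0 and 256 and 169 CPM at D10 (0.94, adjusted p = 0.420, 0.0070 with the block). IKBKB, a kinase of the IκB proteins, had 55.2 and 55.5 CPM at D0, 91.3 and 109 CPM at D7, and 100.1 and 99.5 CPM at D10. Its log2 fold change was 0.86 at D7 (adjusted p = 0.371 in edgeR, 0.0298 with the block) and 0.85 at D10 (0.143 and 0.0100). MAP3K14 (NIK), the kinase of the non-canonical NF-κB pathway, had 10.0 and 12.6 CPM at D0 and 4.67 and 6.46 CPM at D10 (-1.02, adjusted p = 0.318, 0.0311 with the block). The list's median log2 fold change at D10 was 0.05.

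FAS, TNFRSF10B and TNFRSF10D are also known as targets of p53. Of 20 other p53 target genes 0 were called on any day with or without the block (edgeR, 1 at an unadjusted p under 0.05 at D10, beside 7.94% of all genes). DESeq2 called that gene, GDF15, at D10. GDF15, which encodes a stress-induced cytokine, was singled out after its values had been seen. GDF15 stood at 76.4 ± 0.87 CPM at D0 (SD, 2 libraries) and at 134 and 1672 CPM at D10 (log2 fold change 3.56, adjusted p = 0.0429 in DESeq2, 0.209 in edgeR and 0.0789 with the block). At D10 the median log2 fold change of the 20 was 0.07, with 7 higher in both experiments, 5 lower in both and 8 mixed. These are 35%, 25% and 40% of the 20, near the 31.1%, 32.3% and 36.6% of all genes. At D10 0.29% of all genes were called without the block and 4.99% with it, so 0 of 20 does not set this list apart.

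The genes most like TNFSF15 over the 8 libraries, by Pearson correlation of log2 CPM, were CXCL8 (r = 0.991), IL1B (0.991) and CXCL1 (0.990), which encode IL-8, interleukin-1β and another chemokine. CXCL8 had 1.00 and 2.76 CPM at D0 and 188 and 3007 CPM at D10. At D0, D4 and D7 a library had at most 4 counts of IL1B and at most 10 of CXCL1. Their correlations thus rest mainly on the D10 libraries against values near 0. By Spearman's rho IL1B came 297th and CXCL1 40th. For TNFRSF11B the most like genes were GREM1, a BMP antagonist (r = 0.984), CASP4, an inflammatory caspase (0.981), and TNFAIP3 (0.980). GREM1 had 148 and 312 CPM at D0 and 450 and 1676 CPM at D10. Among the 10 genes themselves, the highest correlations were those of TNFRSF1B with TNFRSF11B (r = 0.955), TNFSF15 with TNFRSF11B (0.945) and TNFSF15 with TNFRSF1B (0.931). TNFSF4 had its lowest with TNFRSF1B (r = -0.809). All of these rest on the same 8 libraries, 4 from each experiment, and are a description without a test.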

How the data were processed

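Poly(A) RNA of recipient IMR90 fibroblasts (8 libraries, 4 groups, 2 independent experiments) had been sequenced with a stranded kit. Raw read counts per gene were deposited by the authors, and the processing notes of the submitters name STAR 2.5, DESeq2 and GRCh38. The counting tool, annotation release and strand setting are not given in the sources used here. The table also holds normalized columns, which were not used. One header reads DO and was taken as D0 replicate 1. The methods give 1% serum and serum-free conditioning for such media.

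Genes were filtered with filterByExpr (13798 of 27696 kept), scaled with TMM and tested with edgeR 4.0.16 (glmQLFit and glmQLFTest, R 4.3.3) by group in one fit of all 8 libraries, with Benjamini-Hochberg adjustment and a threshold of 0.05. Standard errors are the log2 fold change over the square root of F. Log2 CPM used a prior count of 2. Of the identifiers 99.6% are in GENCODE 29, which gave positions and exon lengths. Intervals of ratios are exact binomial ones. The replicate numbers pair the libraries: the methods name 2 independent experiments, and deviations from group means of same-numbered libraries correlated across genes with r from 0.418 to 0.722 in 6 pairs of groups.

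The members and lists were chosen with earlier results of these data known. Named genes are the 10 members, their binding partners, genes of the lists called without the block, up to 3 a list and day called with it, and the 3 genes most correlated with the 2 members that changed most at D10. Alternatives were the block, DESeq2 1.42.0, its size factors, a fit without the filter, a minimum of 10 counts in each library, only the 2 groups compared, and leaving out each library. Counts were simulated for D10 against D0 with 100 genes changed at each size (13611 genes tested by edgeR, 13798 by DESeq2). The fit without the block recovered 0% of genes changed by a log2 of 1 and 44% of those changed by 2. The blocked fit recovered 68% and 100%, and DESeq2 14% and 94%. In total 44 genes were called without the block, 182 with it and 110 by DESeq2. The calls with the block and by DESeq2 include genes that had not been changed. The counts were drawn from the blocked fit with its own spread, so its higher recovery is in part built in. Only genes with a mean count over 100 were changed. Recovery at lower counts, and of changes that differ between experiments, was not tested. Figures were drawn with matplotlib 3.10.9.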

Additional observations from a re-analysis of the deposited data

Results flagged for a closer look

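A model added after the values had been seen, with a term for the D10 change in experiment 2 minus that in experiment 1, called 2 of the 10 genes and 3.09% of all genes. Each side of this term is 1 D10 library, and the spread comes from D0, D4 and D7, so it compares single libraries. For TNFSF4 the log2 fold change in experiment 2 was lower by 1.84 than in experiment 1 (-1.84, standard error 0.23, adjusted p = 7.5e-04, edgeR), with 280 CPM at D0 and 88.8 CPM at D10 in experiment 2 and a step from 172 to 193 CPM in experiment 1. For TNFRSF11B it was higher in experiment 2 by 1.00 (standard error 0.23, adjusted p = 0.033, edgeR), from 410 to 1346 CPM against 335 to 606 CPM. TNFSF15 had a difference of 1.02 that did not pass (standard error 0.38, adjusted p = 0.194, edgeR).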

How the results depend on the processing

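At D10 1 of the 10 genes, 1 family gene and 40 of all genes were called. The replicate block gave 2, 2 and 688, DESeq2 2, 2 and 379, no filter on low counts 2, 3 (with TNFSF18, adjusted p = 0.0483 in edgeR) and 371, the compared groups only 0, 0 and 0 (TNFSF15 log2 fold change 4.52, adjusted p = 0.121), and at least 10 counts in every library 20 of all genes. Leaving out 1 library gave 0 to 2, 0 to 2 and 0 to 155. Leaving out 1 library under the block, added after seeing the data, gave 320 and 113 of all genes without D0 of experiments 1 and 2, 634 and 599 without D4, 556 and 491 without D7, and 1906 and 896 without D10, and 1 to 6 of the 10. The 6 without D10 of experiment 1 were TNFSF15, TNFSF4, TNFRSF1A, TNFRSF1B, TNFRSF11B and TNFRSF12A, and the 3 without D10 of experiment 2 were TNFSF15, TNFRSF10D and TNFRSF11B. In these fits TNFRSF21 turned to -0.060 (without D0 of experiment 2) and -0.37 (without D10 of experiment 1), and TNFSF4 to 0.17 (without D10 of experiment 2). At D4 and D7 0 of all genes were called, against 38 and 172 with the block, 44 and 112 with DESeq2 and 21 and 93 without the filter. Between experiments, 4 of the 10, 7 family genes and 4805 of all were called, and 1 to 4, 2 to 10 and 2121 to 5602 when 1 library was left out. The fits of the compared groups and those that leave out a library hold fewer libraries, and the causes were otherwise not tested. Where a D0 or D10 library was left out, that group kept 1 library and the calls rest on the spread within the other groups. Besides TNFRSF11B at D10 the block changed no call of the 10 genes.

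Under the alternatives with all libraries, each of the 10 genes kept its direction on every day. Leaving out 1 library turned the sign of small log2 fold changes, with these lowest and highest values. At D4 they were TNFSF15 -0.54 to 0.44, TNFSF4 -0.29 to 0.60, TNFRSF1A -0.26 to 0.37, TNFRSF1B -0.042 to 0.11, TNFRSF10B -0.039 to 0.066 and FAS -0.24 to 0.33. At D7 they were TNFSF4 -0.12 to 0.59, TNFRSF1A -0.34 to 0.27, TNFRSF1B -0.062 to 0.094, TNFRSF10B -0.018 to 0.35, TNFRSF10D -0.024 to 0.48, TNFRSF11B -0.085 to 0.21, TNFRSF21 -0.26 to 0.31 and FAS -0.35 to 0.20. At D10 they were TNFRSF1A -0.87 to 0.088, TNFRSF21 -0.31 to 0.40 and FAS -0.43 to 0.10. Between experiments they were TNFRSF1B -0.0033 to 0.34, TNFRSF12A -0.20 to 0.041 and TNFRSF21 -0.33 to 0.11. At D10 TNFSF15 lay between 3.61 and 5.07 and TNFRSF11B between 0.70 and 1.87. By Spearman's rho CXCL8 remained first for TNFSF15, while IL1B came 297th and CXCL1 40th. With 2 libraries a group, the spread between experiments limits what can be called.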
